A study of Mus musculus with 53 samples.

Results

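The 10 genes described here, the Toll-like receptor (TLR) genes Tlr1, Tlr2, Tlr3, Tlr4, Tlr6, Tlr7, Tlr8, Tlr9 and Tlr13 and the co-receptor gene Cd14, were followed through an IL-4 time course in mouse bone marrow-derived macrophages (BMDMs). The 10 genes were taken by symbol from the 23847 loci of the expression tables, and all 10 were among the 11146 loci that reached 1 FPKM in at least 1 sample and were tested. FPKM counts the sequenced fragments of a gene relative to its transcript length and to all mapped fragments of the library. RNA-seq of polyadenylated RNA covered 53 samples in 18 groups. Cells came from WT mice or from Stat6-/- mice, both on the C57BL/6 background and aged 8 to 12 weeks. The Stat6-/- mice were full-body knockouts, so STAT6 was missing during differentiation as well as during treatment. Bone marrow cells of both genotypes were differentiated for 6 days with L929 supernatant and then kept for 1, 3, 6 or 24 h with 20 ng/ml IL-4 or without it, and a further untreated group was taken at 0 h. Stat6-/- groups had 2 samples each and WT groups 4, with the exception of 24 h of IL-4 (n = 3), whose replicate 1 was not analysed here.

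TLRs are membrane receptors that recognise conserved microbial molecules and signal through MyD88 or TRIF to NF-κB and interferon regulatory factors. TLR2, as a heterodimer with TLR1 or TLR6, and TLR4, with its co-receptor CD14, sense bacterial lipopeptides and lipopolysaccharide at the cell surface, whereas TLR3, TLR7, TLR8, TLR9 and TLR13 sense nucleic acids inside endosomes. IL-4 is a type 2 cytokine that acts through the transcription factor STAT6 and drives alternative polarization of macrophages.

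The genes lay on 6 chromosomes besides that of Cd14 (mm10, positions as in the expression tables), and each overlapped the protein-coding gene of its name in the GENCODE annotation. Tlr1 (chr5:64924680-64933558, minus strand) and Tlr6 (chr5:64953095-64960034, minus strand) were neighbours separated by 19536 bases. Tlr8 (chrX:167242732-167263788) and Tlr7 (chrX:167304931-167330528), both on the minus strand, were separated by 41142 bases. No annotated gene lay in either gap. The others were Tlr2 (chr3:83836272-83841608, minus strand), Tlr4 (chr4:66827811-66842796, plus strand), Tlr3 (chr8:45395665-45410539, minus strand), Tlr9 (chr9:106222598-106226876, plus strand) and Tlr13 (chrX:106143275-106160493, plus strand). Tlr1 and Tlr6 also shared sequence: 15.26% of the 50-base words of the longest Tlr1 transcript occurred in Tlr6 transcripts, and 12.57% of those of Tlr6 occurred in transcripts of other genes, chiefly Tlr1. Fragments from these stretches cannot be assigned to 1 of the 2 genes, so the values of Tlr1 and Tlr6 carry that uncertainty. Tlr3 shared exonic bases with Gm45542 on the opposite strand and 1.56% of its words with it, and the counting was not stated to use strand. The remaining 7 genes shared no 50-base word with another gene.

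RefSeq promoter windows (GRCm38.p6, 250 bases before to 50 bases after the start) were found for 7 of the 10 genes, in 9 windows. Tlr2, Tlr13 and Tlr9 are shown because their transcripts fell with IL-4 at different times, and Tlr8 because its transcript rose. Sequences read 5′ to 3′ on the strand of the gene. Capitals mark matches on either strand to the STAT6-type motif (TTC and GAA with 4 bases between them), the STAT-type motif TTCNNNGAA, the PU.1-type core GAGGAA, the AP-1-type motif TGANTCA and the interferon-response-type motif (GAAA repeated after 2 bases), with overlapping matches merged.
Tlr2 (chr3:83841559-83841858, minus strand): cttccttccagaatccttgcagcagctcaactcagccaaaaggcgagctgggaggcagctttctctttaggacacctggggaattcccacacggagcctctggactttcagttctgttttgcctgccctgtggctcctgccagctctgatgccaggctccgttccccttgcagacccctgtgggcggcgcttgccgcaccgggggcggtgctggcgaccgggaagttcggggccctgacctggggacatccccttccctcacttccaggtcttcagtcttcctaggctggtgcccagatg
Tlr13 (chrX:106143025-106143324, plus strand): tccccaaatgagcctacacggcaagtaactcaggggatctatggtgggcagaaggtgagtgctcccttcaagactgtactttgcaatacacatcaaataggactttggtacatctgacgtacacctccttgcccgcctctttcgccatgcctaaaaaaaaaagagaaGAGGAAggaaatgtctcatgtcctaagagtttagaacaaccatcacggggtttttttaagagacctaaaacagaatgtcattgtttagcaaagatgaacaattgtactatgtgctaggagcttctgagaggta
Tlr9 (chr9:106222348-106222647, plus strand): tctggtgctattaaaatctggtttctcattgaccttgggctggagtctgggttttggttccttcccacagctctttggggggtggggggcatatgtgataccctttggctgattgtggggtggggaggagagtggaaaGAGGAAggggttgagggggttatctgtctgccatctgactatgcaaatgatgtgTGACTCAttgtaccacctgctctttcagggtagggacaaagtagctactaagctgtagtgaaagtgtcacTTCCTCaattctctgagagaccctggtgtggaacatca
Tlr8 (chrX:167264280-167264579, minus strand): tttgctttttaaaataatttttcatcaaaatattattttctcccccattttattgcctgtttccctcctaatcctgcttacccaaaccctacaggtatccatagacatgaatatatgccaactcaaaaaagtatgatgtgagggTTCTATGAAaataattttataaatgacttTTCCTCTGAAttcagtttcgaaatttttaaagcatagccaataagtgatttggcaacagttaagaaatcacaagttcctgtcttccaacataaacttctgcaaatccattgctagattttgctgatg
The Tlr2 window held none of the 5 motifs. The Tlr13 window held 1 match to GAGGAA. The Tlr9 window held 2 matches to GAGGAA and 1 to TGANTCA. The Tlr8 window held the STAT6-type motif, overlapping GAGGAA on the other strand, and TTCNNNGAA, but its RefSeq start lay 541 bases from the start of the locus in the tables. Of all 32851 windows, 6.95% held the STAT6-type motif, 8.3% held TTCNNNGAA, 28.3% held GAGGAA, 7.81% held TGANTCA and 3.44% held the interferon-response-type motif. The Tlr8 window was the only one of the 9 with the STAT6-type motif, and windows of Tlr1, Tlr6 and Tlr8 held TTCNNNGAA. For Tlr1 this match lay in a window whose RefSeq start was 859 bases from the start of the locus in the tables. The Tlr1 window at that locus start held no match to TTCNNNGAA. These matches describe the letters of the windows and not binding.

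Summed FPKM per library ran from 385889 to 464915, and relative depth, recovered from low loci, ranged from 0.706 to 1.534 of the median sample. Stat6 itself lay between 14.3 and 24.0 FPKM in the 18 Stat6-/- samples and between 58.7 and 90.6 FPKM in the 35 WT samples. All 6 macrophage markers found (Emr1, Csf1r, Cd68, Itgam, Mertk and Fcgr1) were at 1 FPKM or more in all 53 samples, whereas none of the 3 T-cell, 3 B-cell and 4 fibroblast markers reached 1 FPKM in any sample. Of 4 dendritic-cell markers, Siglech reached 1 FPKM in 3 samples, and their summed level was 0.401 to 1.296 FPKM in WT and 0.992 to 1.889 FPKM in Stat6-/- samples. Of 3 mast-cell and basophil markers, Mcpt8 did so in 9 samples and Cpa3 in 1, and their summed level was 0.244 to 0.841 FPKM in WT and 0.752 to 2.50 FPKM in Stat6-/- samples. The summed level of 6 neutrophil and granulocyte markers (S100a8, S100a9, Ngp, Camp, Elane and Mpo) was 219.9 to 614.2 FPKM in WT and 577.7 to 1060 FPKM in Stat6-/- samples. S100a8 and S100a9 weighed most in this sum, with medians over all samples of 189.9 and 214.8 FPKM, and Ngp came next at 50.5 FPKM. The range of the sum in WT with 24 h of IL-4 (219.9 to 320 FPKM) lay below that of its control (442.9 to 614.2 FPKM), whereas the ranges overlapped at 1, 3 and 6 h. The part of these cells in the results was not tested, and in bulk samples fewer cells of a type and less RNA per cell cannot be told apart.

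The 2 Stat6-/- replicates stood apart from each other in the genes studied here. Replicate 2 was above replicate 1 in all 9 Stat6-/- groups for 8 of the 10 genes, compared with 15.6% of 11066 loci. The median ratio of replicate 2 to replicate 1 was 2.68 for Tlr9, 2.41 for Tlr3, 2.25 for Cd14, 1.88 for Tlr1 and 1.61 for Tlr7, and 7.71% of loci had a median ratio of at least 1.5. Tlr2 ran the other way in most groups, with replicate 2 above replicate 1 in 3 of 9. The plot of Stat6-/- samples by replicate shows these gaps beside the WT range. Because all 53 samples shared one estimate of the spread per gene, this gap also widened the errors of the WT comparisons for the genes concerned, and values with the replicate number as a block or without 1 of the replicates are given beside the results they bear on.

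**Figure D1:**
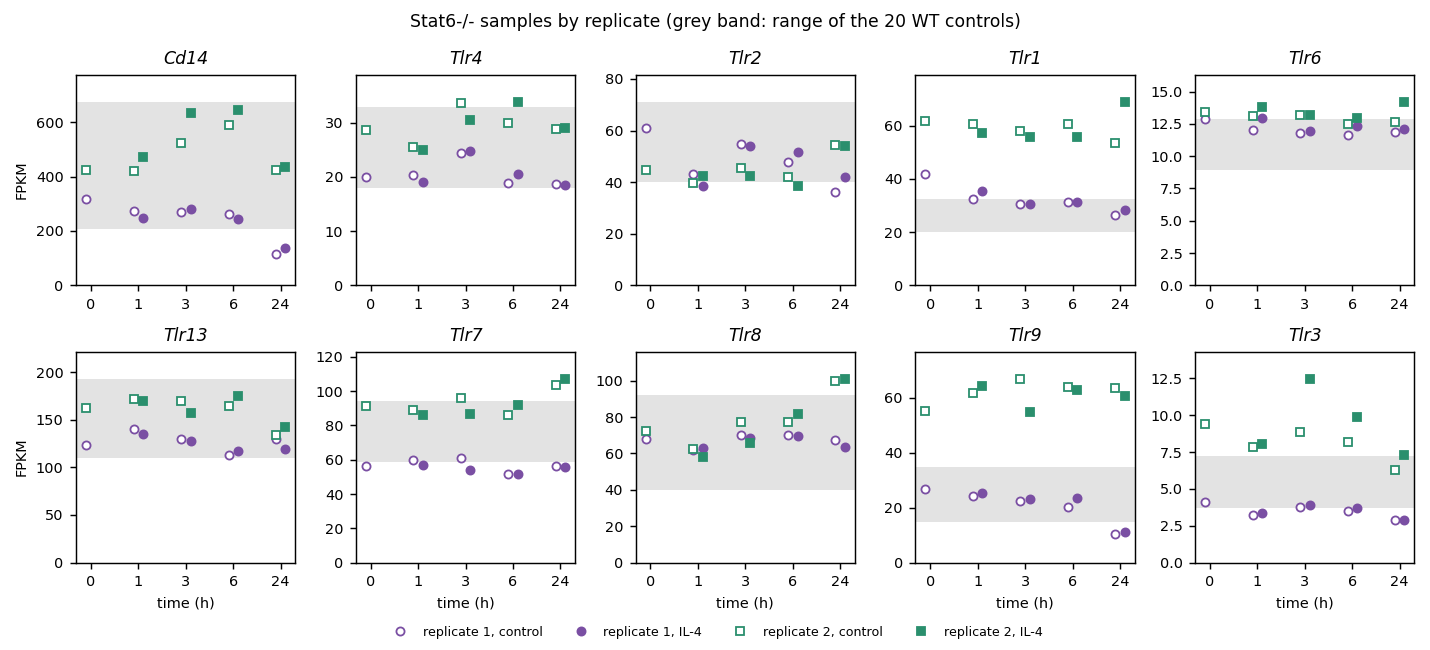
FPKM (y axis, linear from 0) of each gene in every Stat6-/- sample against time in h (x axis). Circles are replicate 1 and squares replicate 2, open for control and filled for IL-4, and the grey band spans the WT controls. Squares lie above circles at every time for Cd14, Tlr1, Tlr3, Tlr4, Tlr6, Tlr7, Tlr9 and Tlr13.

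In untreated WT cells at 0 h, Cd14 was the most abundant of the 10 transcripts at 402 ± 38.7 FPKM (SD, n = 4) and Tlr3 the least abundant at 5.77 ± 1.10 FPKM (SD, n = 4). Tlr13, the receptor for bacterial ribosomal RNA, led the TLR genes at 137 ± 21.1 FPKM (SD, n = 4). Tlr7 (76.5 FPKM), Tlr8 (73.2 FPKM) and Tlr2 (59.7 FPKM) followed, and neighbours in that order overlapped between samples. Tlr9 (27.8 FPKM), Tlr1 (26.4 FPKM) and Tlr4 (25.1 FPKM) also overlapped one another, and Tlr6 came next at 11.2 FPKM. The 5 endosomal receptors made up 72.2% ± 3.20 (SD, n = 4) of the summed TLR level of 443 FPKM. These levels are per length of transcript. Tlr5, Tlr11 and Tlr12 were low, with means of 0.677, 0.359 and 0.111 FPKM at 0 h, and only Tlr5 reached 1 FPKM in a sample.

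IL-4 changed the TLR genes of WT cells in opposite directions and on different schedules. By the fit without a replicate block, Tlr4 and Tlr8 rose and Tlr2 fell within 1 h, Cd14 and Tlr13 fell from 3 h on, and Tlr7 and Tlr9 fell at 24 h. These onsets depend on the fit. In limma with the replicate block, Tlr13 was also lower at 1 h (adjusted p = 2e-05) and Tlr7 at 3 h (0.0226). Tlr9 was lower at 3 h (0.0157) and 6 h (0.00308) in that fit. A gene was called where the limma test gave an adjusted p (Benjamini-Hochberg) under 0.05 with at least a 2-fold change on the log2(FPKM + 1) scale, and passed where the p was met at any fold, so that passed genes include the called ones. Of the 10 genes, 1 was called at 1 h, against 1.49% of all loci tested. At 3 h 3 were called (3.88% of all loci), at 6 h 3 (5.54%) and at 24 h 4 (8.5%). The counts of passed genes were 3 at 1 h (9.39% of all loci), 4 at 3 h (28.9%), 5 at 6 h (41.2%) and 6 at 24 h (55%). The median change of the 10 genes was -0.14, -0.20, -0.23 and -0.66 at 1, 3, 6 and 24 h, beside -0.02, 0.01, -0.00 and -0.07 over all loci. IL-4 and control samples did not overlap for 5 of the 10 at 1 h (16.1% of all loci), 7 at 3 h (38.9%), 4 at 6 h (46.1%) and 8 at 24 h (64.5%). Under a fit with replicate number as a block, 5 genes passed at 1 h (17.1% of all loci), 7 at 3 h (41.1%) and 8 at 6 h (55.2%).

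**Figure D2:**
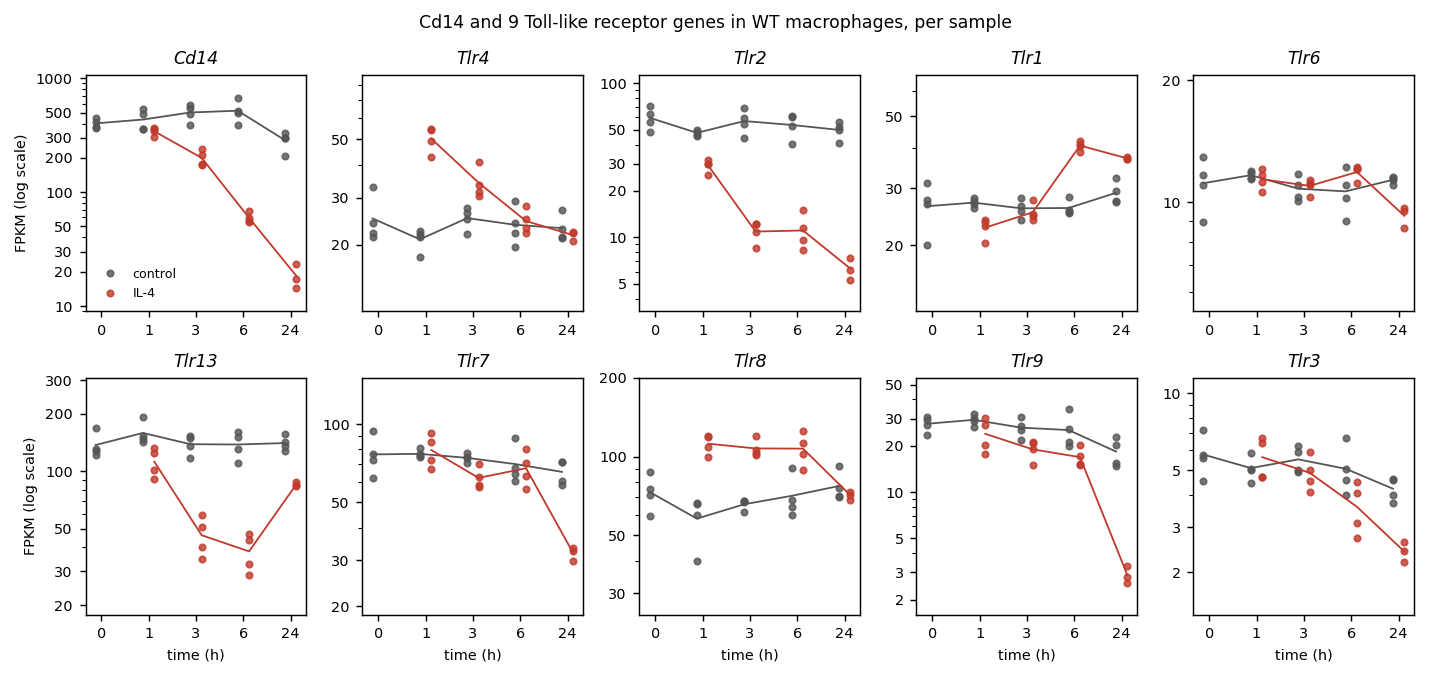
FPKM on a log axis for each gene in every WT sample against time in h, with controls in grey, IL-4 in red and lines through the group means. Tlr4 at 1 h lies between 42.8 and 54.7 FPKM with IL-4 and between 17.97 and 22.6 FPKM without, and Tlr13 with IL-4 is lowest at 6 h, at 28.6 to 47.2 FPKM, and higher again at 24 h, at 84.1 to 88.1 FPKM.

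Cd14 and Tlr4 encode partners in the recognition of lipopolysaccharide, and they moved apart. Tlr4 at 1 h was 54.2, 54.7, 42.8 and 49.0 FPKM in WT replicates 1 to 4 with IL-4 and 21.4, 17.97, 22.6 and 21.9 FPKM in their controls. Every IL-4 sample lay above every control, and the ratio of the means was 2.39. The log2 change was 1.22 (SE 0.17, adjusted p = 4.53e-07, limma). At 3 h all 4 IL-4 samples were still above the controls (30.6 to 41.2 against 21.9 to 27.6 FPKM), with a log2 change of 0.42 (SE 0.17, adjusted p = 0.0518) and an adjusted p of 0.000566 in limma with the replicate block. The response at 3 h was lower than that at 1 h by 0.80 (difference -0.80, SE 0.23, adjusted p = 0.0196). The step did not pass without any 1 of the WT replicates (adjusted p of 0.089 to 0.15). In limma with the replicate block its adjusted p was 3.48e-05. At 6 and 24 h the samples overlapped, with log2 changes of 0.05 (95% interval -0.28 to 0.39) and -0.08 (95% interval -0.44 to 0.28).

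Cd14 with 1 h of IL-4 (302.5 to 362 FPKM) overlapped its control (357 to 538 FPKM). At 3 h the 4 IL-4 samples were at 237, 211, 178 and 174 FPKM, all below the controls at 545, 583, 484 and 391 FPKM. The log2 change at 3 h was -1.32 (SE 0.33, adjusted p = 0.00183, limma). At 6 h the IL-4 samples were at 59.5, 67.6, 54.6 and 56.0 FPKM against 391 to 674 FPKM in the controls. The response at 6 h exceeded that at 3 h (difference -1.77, SE 0.47, adjusted p = 0.0224). This step was no longer called without any 1 of the WT replicates, where its value ran from -1.73 to -1.82. In limma with the replicate block its adjusted p was 6.8e-08. At 24 h the 3 IL-4 samples were at 23.4, 14.4 and 17.3 FPKM and the 4 controls at 209 to 331 FPKM. The further step from 6 to 24 h was -0.81 (SE 0.49, adjusted p = 0.221), and -0.77 (SE 0.21, adjusted p = 0.00305) with the replicate block. The ratio of Cd14 to Tlr4, computed in each sample, was 21.2 ± 6.56 (SD, n = 4) in controls at 1 h and 6.87 ± 0.839 (SD, n = 4) with IL-4. At 24 h it was 12.4 ± 2.31 (SD, n = 4) in controls and 0.842 ± 0.191 (SD, n = 3) with IL-4, without overlap at either time.

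Tlr2 fell at all 4 times, whereas its partner Tlr1 was higher at 6 h and its partner Tlr6 passed lower only at 24 h, and by less than 2-fold. Tlr2, the shared chain of the lipopeptide receptors, was at 29.8, 25.5, 29.7 and 31.7 FPKM with 1 h of IL-4 and at 48.6, 45.5, 46.3 and 50 FPKM in the controls. This early fall had a log2 change of -0.69 (SE 0.16, adjusted p = 0.00223, limma) without overlap. At 3 h IL-4 samples were at 12.1, 8.55, 10.8 and 12.2 FPKM and controls at 54.2, 43.8, 59.6 and 69.4 FPKM, a log2 change of -2.27 (SE 0.16, adjusted p = 9.7e-15). The response deepened between 1 and 3 h (difference -1.58, SE 0.23, adjusted p = 2.75e-06). It did not deepen detectably from 3 to 6 h, when IL-4 samples were at 8.24 to 15.0 FPKM (difference 0.08, 95% interval -0.38 to 0.55). From 6 to 24 h it moved by -0.62 (SE 0.24, adjusted p = 0.0471), to 5.30 to 7.36 FPKM. That last step did not pass in 7 of 12 alternatives, with adjusted p of 0.0543 to 0.287 there. It passed in limma with the replicate block (adjusted p = 0.00481).

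Tlr1 with 6 h of IL-4 was at 40.4, 42.0, 41.1 and 38.9 FPKM, above all controls at 28.1, 25.1, 25.8 and 25.3 FPKM. The log2 change was 0.62 (SE 0.23, adjusted p = 0.0278, limma). It did not pass without any 1 of the 4 WT replicates, where the change was 0.59 to 0.66 and the largest adjusted p was 0.143, and with the replicate block the adjusted p was 1.16e-07. At 24 h the 3 IL-4 samples (36.9 to 37.4 FPKM) were above the 4 controls (27.1 to 32.3 FPKM), with a log2 change of 0.35 (SE 0.25, adjusted p = 0.239) and, with the replicate block, an adjusted p of 0.00153. At 1 h the direction was the other, with IL-4 samples at 20.3 to 23.9 FPKM and controls at 26.1 to 28.1 FPKM (log2 change -0.25, SE 0.23, adjusted p = 0.629, and 0.0398 with the block). Tlr6 stayed within a narrow range. It was at 8.63 to 9.66 FPKM with 24 h of IL-4 and at 11.1 to 11.6 FPKM in the controls, a log2 change of -0.27 (SE 0.08, adjusted p = 0.00353). At 1, 3 and 6 h Tlr6 samples overlapped and the log2 changes were -0.03, 0.02 and 0.15, the last with an adjusted p of 0.0886 and 0.0285 with the block. The ratio of Tlr1 to Tlr2 in each sample was 0.589 ± 0.0663 (SD, n = 4) in controls at 24 h and 6.01 ± 0.939 (SD, n = 3) with IL-4. The ratio of Tlr6 to Tlr2 went from 0.232 ± 0.0331 (SD, n = 4) to 1.503 ± 0.255 (SD, n = 3), again without overlap.

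Among the endosomal receptors, Tlr13 fell and partly returned. With 1 h of IL-4 it was at 124, 132, 91.3 and 101.5 FPKM against 154, 193, 147 and 142 FPKM in the controls, a log2 change of -0.50 (SE 0.17, adjusted p = 0.0512, limma) that passed with the replicate block (adjusted p = 2e-05). At 3 h the IL-4 samples were at 51.3, 59.2, 40.2 and 34.7 FPKM and the controls at 117 to 153 FPKM (log2 change -1.58, SE 0.17, adjusted p = 5.3e-10). At 6 h they were at 44.0, 47.2, 32.9 and 28.6 FPKM against 109.9 to 159.7 FPKM (log2 change -1.84, SE 0.17, adjusted p = 9.19e-12). In both replicate 2 was highest and replicate 4 lowest, as in the controls at 3 h. At 24 h the 3 IL-4 samples were at 88.1, 84.1 and 84.9 FPKM, still below the controls at 127 to 157 FPKM (log2 change -0.70, SE 0.18, adjusted p = 0.00126). The return from 6 to 24 h was 1.14 (SE 0.25, adjusted p = 0.000452), and Tlr13 was the only one of the 10 genes whose response was higher at 24 h than at 6 h by the test. At 6 h Tlr13 made up 11.8% ± 1.66 (SD, n = 4) of the summed TLR level with IL-4 and 32.6% ± 3.02 (SD, n = 4) in the controls.

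Tlr7 and Tlr8, neighbouring genes for receptors related to single-stranded RNA sensing, changed at different times and in different directions. Tlr8 with 1 h of IL-4 was at 119.9, 119, 99.98 and 109 FPKM and at 59.7, 39.9, 65.7 and 66.5 FPKM in the controls. The log2 change was 0.96 (SE 0.14, adjusted p = 2.09e-06, limma), short of 2-fold on this scale, and 0.77 without WT replicate 2, whose control was the lowest. At 3 h IL-4 samples (101.6 to 119 FPKM) were again all above the controls (61.4 to 67.4 FPKM), with a log2 change of 0.70 (SE 0.14, adjusted p = 0.000145). At 6 h the highest control, replicate 1 at 90.7 FPKM, was above the lowest IL-4 sample, replicate 4 at 89.0 FPKM, and the change was 0.60 (SE 0.14, adjusted p = 0.00068). Within each replicate number Tlr8 was higher with IL-4 in 4 of 4 pairs at 6 h. At 24 h the samples overlapped (log2 change -0.11, 95% interval -0.42 to 0.20), and the response was lower than at 6 h (difference -0.71, SE 0.21, adjusted p = 0.00918).

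Tlr7 did not pass at 1, 3 or 6 h in the fit without a block, with log2 changes of 0.04, -0.26 and -0.05, and was lower at 24 h. At 3 h its IL-4 samples (57.2 to 70.1 FPKM) were just below the controls (70.9 to 77.1 FPKM), with an adjusted p of 0.418 and 0.0226 with the replicate block. At 24 h Tlr7 was at 32.5, 29.7 and 33.4 FPKM with IL-4 and at 71.7, 71.2, 58.5 and 60.6 FPKM in the controls. The log2 change of -1.01 (SE 0.22, adjusted p = 0.000244) was at the 2-fold limit, and it was -0.98 with the block and -0.97 without WT replicate 1, both short of a call though past the p threshold. The ratio of Tlr8 to Tlr7 in each sample was 0.754 ± 0.159 (SD, n = 4) in controls and 1.42 ± 0.0935 (SD, n = 4) with IL-4 at 1 h. At 24 h it was 1.18 ± 0.0952 (SD, n = 4) in controls and 2.24 ± 0.197 (SD, n = 3) with IL-4. The ratio did not overlap between treatments at any of the 4 times.

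Tlr9, the receptor for unmethylated CpG DNA, fell mainly between 6 and 24 h. At 24 h it was at 3.29, 2.56 and 2.80 FPKM with IL-4 and at 22.9, 20.2, 15.4 and 14.8 FPKM in the controls. The log2 change was -2.30 (SE 0.46, adjusted p = 7.36e-05, limma), and the response differed from that at 6 h (difference -1.76, SE 0.63, adjusted p = 0.0332). At 3 h its IL-4 samples (15.0 to 21.0 FPKM) were below the controls (21.7 to 31.0 FPKM), with a log2 change of -0.45 (SE 0.43, adjusted p = 0.509, and 0.0157 with the replicate block). At 6 h its samples overlapped, with a log2 change of -0.53 (adjusted p = 0.337, and 0.00308 with the block). Tlr3, the receptor for viral RNA duplexes, was at 2.62, 2.41 and 2.18 FPKM with 24 h of IL-4, below its controls at 3.73 to 4.61 FPKM. At 6 h its log2 change was -0.40 (adjusted p = 0.292, and 0.000694 with the block). The log2 change at 24 h of -0.62 had an SE of 0.32 and an adjusted p of 0.0984, and with the replicate block it was -0.58 (SE 0.11, adjusted p = 1.52e-05). The falls of Cd14, Tlr2, Tlr6, Tlr7, Tlr9 and Tlr13 at 24 h stood beside a lower neutrophil marker sum in these samples and a lower macrophage marker sum (2604 to 2626 against 3274 to 3773 FPKM), whose part was not tested.

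Each response was also compared between successive times in WT. Between 1 and 3 h, 2 of the 10 genes were called (1.61% of all loci), Tlr2 and Tlr13 (-1.08, SE 0.24, adjusted p = 0.00132, limma), and with Tlr4 3 passed (11.1%). Between 3 and 6 h Cd14 was the 1 gene called, beside 0.449% of all loci, and the 1 gene that passed, beside 3.31%. Between 6 and 24 h 2 were called (6.06% of all loci), Tlr13 upwards and Tlr9 downwards, and 6 passed (27.8%). Tlr7 (-0.96, SE 0.31, adjusted p = 0.0158) and Tlr6 (-0.42, SE 0.11, adjusted p = 0.00227) were among these 6. With the replicate block the steps of Cd14 from 1 to 3 h (-0.99, adjusted p = 0.000262) and of Tlr1 from 3 to 6 h (0.66, adjusted p = 0.000174) passed as well. For the step from 6 to 24 h, neither Tlr7 (adjusted p of 0.0562 to 0.126) nor Tlr9 (0.112 to 0.165) passed without any 1 of the WT replicates, and Tlr9 did not pass with quantile normalization (0.056) or no filter (0.0541). Tlr6 (0.0549) and Tlr8 (0.0962) did not pass without WT replicate 2, and the count of passed genes was between 2 and 3 without 1 of the WT replicates. All of these steps passed in limma with the replicate block. The adjusted p was then 6.15e-07 for Tlr7, 1.18e-07 for Tlr9, 0.000142 for Tlr6 and 0.00585 for Tlr8.

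In Stat6-/- cells none of the 10 genes was called or passed at any time, and 0% of all loci were called or passed at 1, 3, 6 or 24 h by limma. At an unadjusted p under 0.05, 0 of the 10 genes stood out at each time, beside 0.458%, 1.18%, 0.79% and 0.332% of all loci. These shares are well below the threshold itself, so the unpaired test was conservative here. Deviations from group means correlated at 0.79 to 0.90 between IL-4 and control samples of the same replicate and time. That pairing was not used in this fit. Averaged over the 4 times, which used 8 IL-4 and 8 control samples, 0 of the 10 passed, beside 0.00897% of all loci, and the largest change of the 10 was 0.13 (Tlr3, 95% interval -0.30 to 0.55). The 95% intervals of the averaged change were -0.23 to 0.23 for Tlr2, -0.26 to 0.22 for Tlr13, -0.24 to 0.24 for Tlr4, -0.25 to 0.16 for Tlr8 and -0.39 to 0.56 for Cd14. In this average the samples of each replicate at the 4 times counted as separate samples. These intervals therefore do not measure the spread between the Stat6-/- replicates. With the replicate block, which uses the pairing, none of the 10 genes passed either. The averaged change was then -0.00 (SE 0.08) for Tlr2, 0.08 (SE 0.10) for Cd14 and 0.13 (SE 0.07) for Tlr3. Samples also stayed close at single times: Tlr4 with 1 h of IL-4 was at 19.0 and 24.9 FPKM beside 20.3 and 25.6 FPKM in its controls. Tlr2 with 24 h of IL-4 was at 42.0 and 54.1 FPKM beside 36.1 and 54.5 FPKM. Samples of IL-4 and control were separate for 1 of the 10 genes at 3 h, beside 15.8% of all loci, and for 0 at 1, 6 and 24 h, beside 13.4%, 14.1% and 8.19%. That gene was Tlr8, at 68.3 and 65.7 FPKM with IL-4 and 70.2 and 77.1 FPKM without.

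The difference between the genotypes' responses was tested as an interaction. At 1 h Tlr4 (1.28, SE 0.29, adjusted p = 0.00375) and Tlr8 (1.00, SE 0.25, adjusted p = 0.0102) were called, 2 of 10 beside 1.25% of all loci, and the same 2 were those that passed (3.36% of all loci). Tlr8 was short of the adjusted threshold in limma without WT replicate 2 (adjusted p = 0.054), without either Stat6-/- replicate (0.0523 and 0.0958) and in a fit of only the samples compared (0.0778). At 3 h Tlr2 (-2.21, SE 0.28, adjusted p = 1.02e-07) and Tlr13 (-1.51, SE 0.29, adjusted p = 0.000199) were called, 2 of 10 beside 3.48%. With Tlr8 (adjusted p = 0.0189) 3 passed, beside 11.2% of all loci. The Tlr8 difference was 0.83 with the replicate block (adjusted p = 0.00882), and it did not pass without WT replicate 3 (0.0604). Cd14 at 3 h differed by -1.49 (SE 0.57, adjusted p = 0.0974), and with the replicate block it was called too (SE 0.25, adjusted p = 1.21e-05). At 6 h 3 of 10 were called beside 4.41%, with Tlr13 at -1.91 (SE 0.29, adjusted p = 3.75e-06) next to Tlr2 and Cd14. The same 3 were those that passed (16.5% of all loci). Tlr8 at 6 h did not pass (adjusted p = 0.116, and 0.0693 with the block). At 24 h 4 of 10 were called beside 6.85%, and Tlr7 (-1.03, SE 0.37, adjusted p = 0.0354) and Tlr9 (-2.33, SE 0.76, adjusted p = 0.0205) joined Tlr2 and Cd14. With Tlr6 (-0.36, SE 0.13, adjusted p = 0.0327), 5 passed beside 27% of all loci. Tlr6 no longer passed without Stat6-/- replicate 1 (adjusted p = 0.065) or 2 (0.193), without WT replicate 2 (0.0994) or 3 (0.0969), or with quantile normalization (0.0853). Neither Tlr7 nor Tlr9 passed in a fit of only the samples compared (adjusted p of 0.107 and 0.148) or without any 1 of the WT replicates, where the difference ran from -1.09 to -0.98 and from -2.40 to -2.22. With the block the difference was -2.25 (SE 0.27, adjusted p = 2.2e-08) for Tlr9 and -0.99 (SE 0.16, adjusted p = 6.48e-06) for Tlr7. Tlr13 at 24 h differed by -0.68 (SE 0.30, adjusted p = 0.0863), and by -0.64 (SE 0.15, adjusted p = 0.000738) with the block. The block also passed the differences of Tlr2 (-0.65, adjusted p = 0.0472) and Tlr13 (-0.47, adjusted p = 0.0445) at 1 h, Tlr4 (0.49, adjusted p = 0.0363) at 3 h, and Tlr1 (0.68, adjusted p = 0.000432) and Tlr3 (-0.55, adjusted p = 0.0108) at 6 h. At 24 h it passed that of Tlr3 (-0.67, adjusted p = 0.00191). The plot of log2 changes in both genotypes shows the WT curves leaving 0 and the Stat6-/- curves staying within 0.23 of it.

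**Figure D3:**
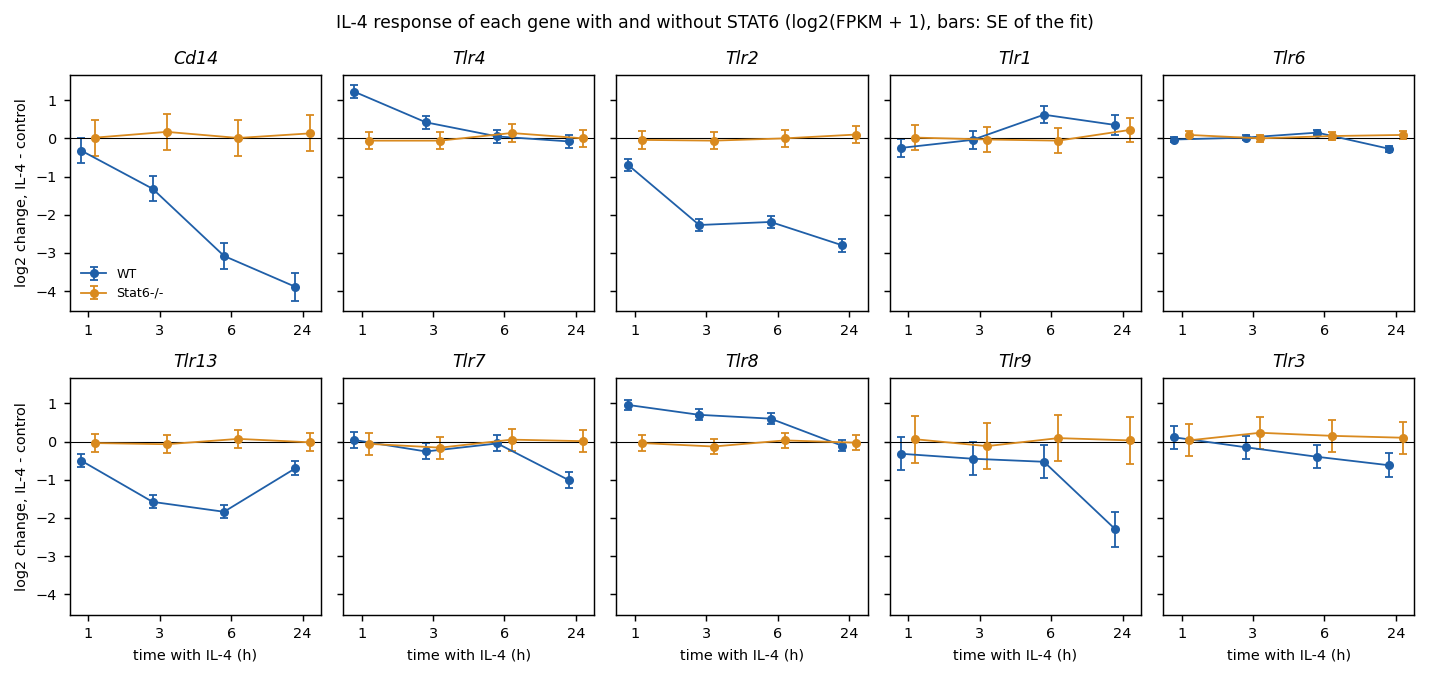
Log2 change of IL-4 against control (y axis, log2(FPKM + 1) scale) against hours with IL-4 (x axis) in WT (blue) and Stat6-/- (orange). Points are fitted changes and bars their SE. WT changes span 1.22 (Tlr4 at 1 h) to -3.89 (Cd14 at 24 h), and no Stat6-/- change exceeds 0.23 in size.

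Without IL-4, the difference between the genotypes depended on the Stat6-/- replicate for most of the 10 genes. Over the 5 control times 2 genes passed and 0 were called, beside 21.4% passed and 0.287% called of all loci. Tlr1 was higher in Stat6-/- cells by 0.68 (SE 0.13, adjusted p = 0.000105, limma), and by 0.25 to 1.11 with 1 replicate left out. At 0 h Tlr1 was at 41.7 and 61.9 FPKM in Stat6-/- cells and at 20.0 to 31.1 FPKM in WT cells, and it was the 1 gene of the 10 without overlap there, beside 18.9% of all loci (log2 difference 0.94, SE 0.28, adjusted p = 0.0623). Tlr6 was higher over the control times by 0.16 (SE 0.04, adjusted p = 0.00282), and by 0.11 to 0.21 with 1 replicate left out. In these averages the 5 control samples of each replicate counted as separate samples. The p-values of Tlr1 and Tlr6 over the control times therefore do not measure the spread between the 2 Stat6-/- replicates. The difference in Tlr9 (0.49, SE 0.24, adjusted p = 0.144) rested on replicate 2. Without that replicate Tlr3, Tlr7 and Tlr9 were lower in the Stat6-/- samples, with differences of -0.44, -0.34 and -0.31, and Cd14 differed by -0.82. The Stat6-/- side of that fit was 1 replicate at the 5 control times, so only the differences are given. Time in culture alone moved none of the 10 past the test in either genotype, where 17.2% (WT) and 0.718% (Stat6-/-) of all loci passed and 1.13% and 0.161% were called between 0 and 24 h. In WT, samples of 2 genes, Tlr9 and Cd14, did not overlap between these times, beside 24.8% of all loci. Cd14 was at 367 to 452 FPKM at 0 h and at 209 to 331 FPKM at 24 h in untreated WT cells (log2 change -0.51, SE 0.33, adjusted p = 0.302, and 0.0049 with the replicate block). The block also passed the falls of Tlr9 (-0.59, adjusted p = 0.00238) and Tlr3 (-0.36, adjusted p = 0.00388) in WT and of Cd14 (-0.71, adjusted p = 0.012), Tlr3 (-0.46, adjusted p = 0.019) and Tlr1 (-0.42, adjusted p = 0.0153) in Stat6-/- cells.

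By 24 h IL-4 had reordered the 10 transcripts of WT cells, as the plot of levels at 24 h shows. Cd14 went from rank 1 of 10 in the controls (286 FPKM) to rank 6 (18.3 FPKM), where its samples overlapped those of Tlr4 (21.7 FPKM) above it. Tlr13 (85.7 FPKM) and Tlr8 (71.1 FPKM) led, and their samples did not overlap. Tlr1 (37.1 FPKM) rose from rank 6 to rank 3, above Tlr7 (31.9 FPKM), and Tlr2 dropped from rank 5 to rank 8 (6.27 FPKM), below Tlr6 (9.27 FPKM). Tlr9 (2.88 FPKM) and Tlr3 (2.41 FPKM) overlapped at the bottom. The summed TLR level was 268 ± 3.56 FPKM (SD, n = 3) with IL-4 and 419 ± 30.03 FPKM (SD, n = 4) in the controls, yet the endosomal share was 72.3% ± 0.463 (SD, n = 3) and 72.9% ± 2.50 (SD, n = 4).

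**Figure D4:**
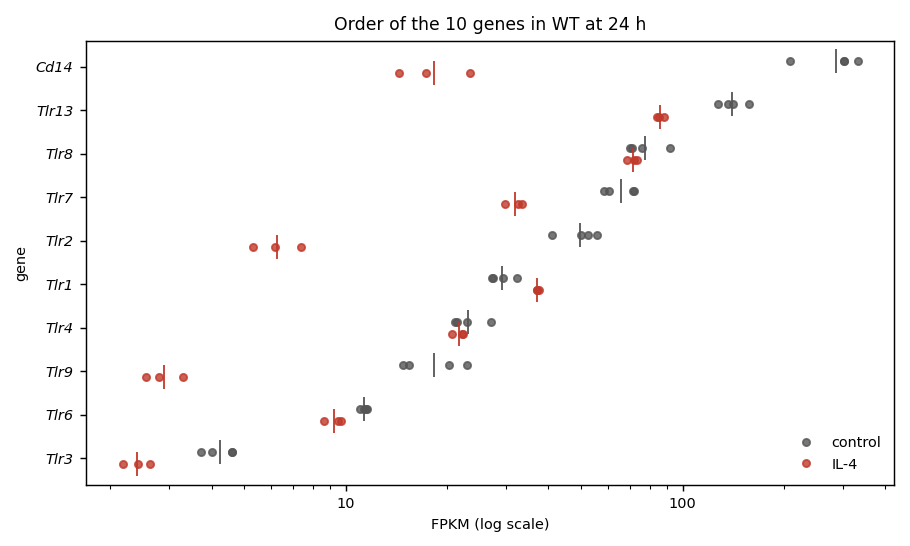
FPKM on a log axis (x) of each gene (y, ordered by control mean) in the WT samples at 24 h, controls in grey and IL-4 in red, with vertical ticks at the means. Cd14 moves from 209 to 331 FPKM in controls to 14.4 to 23.4 FPKM with IL-4, and Tlr1 and Tlr2 exchange order.

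Other genes of the TLR pathway were taken from lists by role. Of 7 tested co-receptors and chaperones of TLRs, 2 passed higher and 4 lower at 24 h in WT, where 55% of all loci passed, with a median log2 change of -0.35 beside -0.07 over all loci. Cd180, a TLR4-like surface receptor, was at 52.95 to 87.7 FPKM with 6 h of IL-4 and at 139.9 to 219 FPKM in controls (log2 change -1.34, SE 0.29, adjusted p = 0.000236, limma). Its binding partner Ly86 moved the other way at 6 h, to 519 to 688 FPKM from 243 to 288 FPKM (log2 change 1.10, SE 0.23, adjusted p = 2e-04). At 24 h Ly86 was lower than its control instead (106.1 to 134 against 254 to 319 FPKM, log2 change -1.25, SE 0.25, adjusted p = 7.67e-05). Cd36, a scavenger receptor that cooperates with TLR2, rose at 24 h by 1.32 (SE 0.41, adjusted p = 0.00594).

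Of 19 tested adaptors and kinases, 1 passed higher and 9 lower at 24 h, beside the same 55% of all loci. The 2 called genes fell: Ikbke, a kinase of the interferon branch, by 1.71 on the log2 scale at 24 h (11.5 to 13.7 against 38.8 to 47.7 FPKM), and Pik3ap1, an adaptor that links TLRs to PI3-kinase, by 1.14 at 6 h. Of 12 negative regulators, 3 passed higher and 6 lower at 24 h (55% of all loci). Socs1, a feedback inhibitor of cytokine signalling, rose by 5.90 (SE 0.26, adjusted p = 3.04e-20) at 1 h, from at most 0.736 FPKM in the controls to 72.1 to 122 FPKM. Irak3, which restrains TLR signalling at the receptor complex, fell by 1.58 on the log2 scale at 24 h (5.71 to 6.05 against 17.6 to 22.3 FPKM). Dusp1, a phosphatase of MAP kinases, fell by 2.26 at 1 h and by 2.31 at 3 h on the same scale, and the repressor Atf3 rose by 1.22 at 24 h.

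Of 11 tested TLR target genes, 1 passed higher and 5 lower at 24 h, where 55% of all loci passed, with a median of -0.70 beside -0.07 over all loci. Tnf was at 3.32 to 4.49 FPKM with 1 h of IL-4 and at 18.7 to 21.3 FPKM in controls (log2 change -2.09, SE 0.13, adjusted p = 5.02e-16), and at 24 h it was slightly higher (0.34, SE 0.14, adjusted p = 0.0386). Il1b fell by 4.37 and Cxcl10 by 3.18 on the log2 scale at 24 h. Cxcl2 fell by 1.12 at 1 h, 1.38 at 3 h and 1.91 at 24 h, and Ccl3 by 1.01 at 3 h. Ptgs2, encoding an inducible prostaglandin synthase, went against the list and rose by 1.65 at 6 h, to 2.28 to 4.39 FPKM. Of 5 endolysosomal proteases, some of which process endosomal TLRs, 3 passed higher and 1 lower at 24 h (55% of all loci), and Ctsk rose by 1.58 (SE 0.59, adjusted p = 0.0218). Tlr5 was at 0.0354 to 0.0479 FPKM with 24 h of IL-4 and at 0.446 to 0.904 FPKM in controls, a log2 change of -0.68 that passed. In Stat6-/- cells none of the genes of these lists passed at any time.

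**Figure D5:**
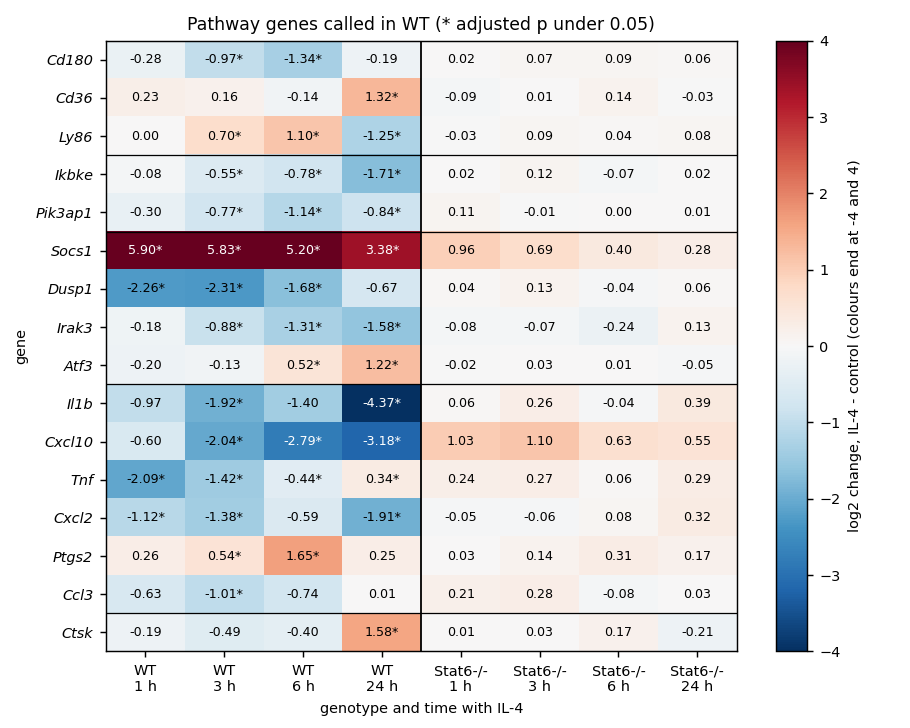
Log2 change of IL-4 against control for the 16 pathway genes called in WT (rows) by genotype and time (columns), with the value in each cell and an asterisk where the adjusted p is under 0.05. Colours end at -4 and 4. Asterisks stand in the WT columns only, and the largest values are 5.90 for Socs1 at 1 h and -4.37 for Il1b at 24 h.

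Over the 18 group means of log2(FPKM + 1), the loci whose level ran most like that of each gene were read off by Pearson's r. These points are groups of 1 time course, so r is a description with no test. Cd14 ran with Rasa4 (r = 0.976), Cttnbp2nl (0.973) and Clec12a (0.972), and Tlr2 with Ncf1 (0.977), Nxpe4 (0.971) and Pmaip1 (0.970). The level of Tlr4 followed AI504432 (0.969), Kcna3 (0.960) and 9130008F23Rik (0.928), that of Tlr13 followed Cd93 (0.983), Ptk2b (0.983) and Slc16a10 (0.971), and that of Tlr9 followed Aoah (0.989), Plod1 (0.975) and Cyp4f16 (0.971). Tlr7 ran with Psap (0.959), Il6ra (0.936) and Ppp6r2 (0.932). Among the 10 genes themselves the highest r were 0.89 for Tlr3 with Cd14, 0.88 for each of Tlr2 with Cd14, Tlr9 with Cd14 and Tlr3 with Tlr9, and the lowest was -0.74 for Tlr8 with Tlr13.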

How the data were processed

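RNA-seq of polyadenylated RNA was measured in 53 samples. According to the labels, libraries were TruSeq, and the submitters' processing notes name TopHat2 2.0.7, Cufflinks 2.0.2 and mm10. The authors deposited 1 table of FPKM values per sample, not counts, so counting intervals were not computed. FPKM values were joined on locus and gene, and loci at 1 FPKM or more in at least 1 sample were kept. Log2(FPKM + 1) values of all 53 samples were fitted by group with limma 3.58.1 (R 4.3.3), with a variance trend and Benjamini-Hochberg adjustment per comparison over 20 comparisons. Fold changes on this scale understate those of low genes. The script was tested on simulated data.

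The 10 genes and the lists were chosen with earlier results of these data known. All 10 are named, as are list genes called in WT (up to 8 per list) and, for each of the 10 called in WT, the 3 loci with the highest correlation. The labels do not say that replicates were separate animals, so p-values measure the spread between these samples. WT replicate numbers were taken to pair samples, which is an assumption on which the block fits rest. The study describes its WT data as those of individual animals, but the labels do not tie a number to an animal. Over all WT groups, deviations from group means correlated at a mean of 0.22 (-0.14 to 0.57) between samples of the same number. Between WT samples of different numbers the mean was -0.07 (-0.56 to 0.50). IL-4 and control samples of the same number and time had deviations from their group means correlated at 0.03 to 0.56 in WT and at 0.79 to 0.90 in Stat6-/-, where 2 replicates force equal pairs. Alternatives were a pseudocount of 0.1, no filter, quantile normalization, an ordinary linear model, the replicate block, only the samples compared and leaving out each replicate. Promoters came from RefSeq and positions of exons from GENCODE. Promoters of Tlr4, Tlr7 and Cd14 were not used here.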

Additional observations from a re-analysis of the deposited data

Results flagged for a closer look

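In a Dixon test of sets of 4 samples, 2 of 80 sets of the 10 genes had an outlying sample, and chance gives about 4. Tlr6 in WT with 6 h of IL-4 was at 11.14 FPKM in replicate 2 and at 12.07 to 12.19 FPKM in the others. Tlr8 in WT controls at 3 h was at 61.39 FPKM in replicate 2 and at 66.75 to 67.4 FPKM in the others.

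The response to IL-4 differed between WT and Stat6-/- cells by the interaction test in limma for the following. At 1 h the differences (WT minus Stat6-/-, log2) were 1.28 for Tlr4 and 1.00 for Tlr8. At 3 h they were -2.21 for Tlr2 and -1.51 for Tlr13. At 6 h they were -2.18 for Tlr2, -1.91 for Tlr13 and -3.09 for Cd14. At 24 h they were -2.90 for Tlr2, -4.03 for Cd14, -2.33 for Tlr9 and -1.03 for Tlr7. The share of all loci called rose from 1.25% in the earliest of these tests to 6.85% in the latest. In limma with only the samples compared, Tlr8 at 1 h did not pass (adjusted p = 0.0778). Tlr9 (0.148) and Tlr7 (0.107) at 24 h did not pass in such fits either. Tlr8 also failed without WT replicate 2 (0.054), and Tlr7 and Tlr9 failed without any 1 of the WT replicates. With the replicate block Tlr7, Tlr8 and Tlr9 passed.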

How the results depend on the processing

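Of 2380 values of the 10 genes under the 12 alternatives, 2234 kept their direction and side of the threshold, 89 crossed to pass it, 54 no longer passed and 3 reversed. The reversed values were Tlr3 (-0.44), Tlr7 (-0.34) and Tlr9 (-0.31), lower in Stat6-/- than WT controls without Stat6-/- replicate 2, whereas without replicate 1 they were 0.58, 0.36 and 1.29. With the replicate block, the genes that passed numbered 5 at 1 h, 7 at 3 h and 8 at 6 h in WT, 4, 5 and 5 for the interactions at 1, 3 and 6 h, 2 for the step from 3 to 6 h, and 3 each for untreated WT and Stat6-/- cells between 0 and 24 h, and the genes called did not move by over 1.5 times. At 24 h the block also passed Tlr1 and Tlr3 in WT, and Tlr3 and Tlr13 for the interaction. The share of all loci that passed in WT at 1, 3 and 6 h was higher with the block too, as given above. Shares of all loci do not stand beside the other counts here, so a moved count is not a result about the 10 genes. With only the samples compared, 7 passed at 3 h in WT, and 1 was called for the interaction at 1 h and 2 at 24 h. In these fits 2 passed for the step from 3 to 6 h and 2 for untreated WT. Quantile normalization gave 2 called in WT at 1 h and 1 for the step from 6 to 24 h, and no filter gave 1 for the latter. Leaving out 1 replicate at a time gave 1 to 2 called and 3 to 5 passed in WT at 1 h. For the interactions it gave 1 to 2 called and 1 to 2 passed at 1 h, and 2 to 4 called and 2 to 5 passed at 24 h. For the steps it gave 0 to 1 called and 0 to 2 passed from 3 to 6 h, and 1 to 2 called and 2 to 7 passed from 6 to 24 h. Between genotypes it gave 0 to 1 called and 0 to 3 passed at 0 h, and 0 to 2 called and 2 to 6 passed over the control times. Between 0 and 24 h it gave 0 to 3 passed in untreated WT and 0 to 2 called and 0 to 3 passed in untreated Stat6-/- cells. Without a Stat6-/- replicate, each Stat6-/- group had 1 sample, assumed to vary like the other groups. Counts from those fits rest on 1 Stat6-/- replicate and do not measure the spread between replicates of that genotype. The causes were not tested. The 2 Stat6-/- replicates limit what could be detected there, and no depth in reads was given.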
